A study of Mus musculus with 3 samples.

Results

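The glucocorticoid receptor gene Nr3c1 and 7 genes that work with it were followed in type 2 innate lymphoid cells (ILC2s), tissue lymphocytes without antigen receptors that make type 2 cytokines. The 8 genes were chosen by symbol, as the receptor, its FK506-binding co-chaperones Fkbp5 and Fkbp4, its targets Tsc22d3 and Sgk1, its coactivators Ncoa1 and Ncoa2 and its corepressor Ncor1. All 8 were listed among the 16129 genes of the deposited table. The cells were sorted by flow cytometry from digested lungs of wild-type mice that received IL-33 in vivo, and 3 libraries of this 1 group were sequenced. No library from mice without IL-33 or with a steroid was analysed here, so levels could be compared between genes and between libraries, and not between treatments. The sources used here give neither the dose and timing of IL-33 nor the age of the mice, the antibodies or the gates. They do not tie the libraries to animals either, so p-values hold only for these libraries, and the differences between libraries may be technical.

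Glucocorticoids are adrenal steroid hormones that diffuse into cells and bind a receptor held in the cytoplasm by HSP90 and its co-chaperones. The bound receptor exchanges FKBP51 for FKBP52, enters the nucleus, and either binds palindromic DNA elements or attaches to other transcription factors such as AP-1 and NF-kB. Coactivators of the p160 family and corepressors of the NCoR family then open or close the chromatin at its sites. In lymphocytes this pathway is known for restraining cytokine production, and ILC2s are among the lung cells that steroids used in asthma act on.

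The libraries held 19948056, 19883728 and 19976129 expected counts in replicates 1, 2 and 3. Levels are TPM, which is scaled for transcript length and library size, given as the mean ± SD of 3 libraries. Detected means a level of 1 TPM or above in every library, which 67.3% of all listed genes reached. All 12 ILC2 markers examined were detected, with a median of 572 TPM. Among 60 listed markers of 9 other cell groups 23 were detected. The other groups' medians ran from 0.0417 TPM for mast cell and basophil markers to 4.13 TPM for macrophage and monocyte markers. Single markers stood above the median of all listed genes, 11.2 TPM. Among them were the endothelial marker Pecam1 at 79.8 ± 2.76, the macrophage marker Lyz2 at 39.1 ± 6.98, the epithelial marker Cdh1 at 23.3 ± 1.02 and the B cell marker Cd79b at 21.9 ± 1.82 TPM. Macrophage and monocyte markers, 9 of 12 listed genes detected, had summed levels of 402.5, 394.7 and 552.1 TPM in replicates 1, 2 and 3, of which Chil3 gave 337.6, 326.62 and 461.15. The ratio of replicate 3 to the mean of the others was 1.39 for that sum and lay between 0.971 and 1.04 for each of the 8 genes. In a bulk sample, fewer cells that express a gene and less of its RNA per cell cannot be told apart.

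**Figure D1:**
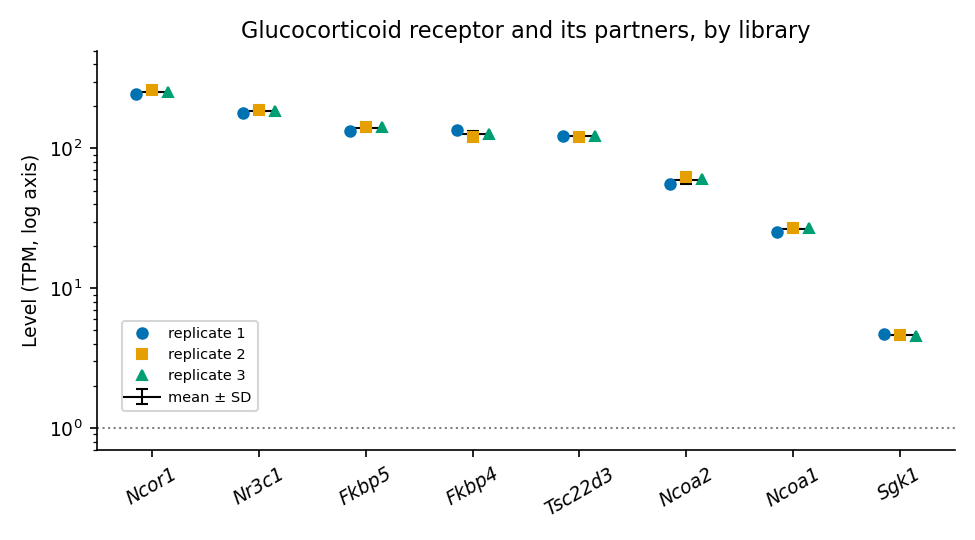
Levels of the 8 genes in TPM on a log axis, ordered by mean. Symbols are the 3 libraries, the black bar is the mean and its whiskers the SD, and the dotted line is the detection level of 1 TPM. Ncor1 and Nr3c1 lead, Fkbp5, Fkbp4 and Tsc22d3 lie close together between 121 and 142 TPM, and Sgk1 lies at 4.55 to 4.74 TPM.

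All 8 genes were detected, and 5 of the 8 had a mean of at least 100 TPM, a level that 10.3% of all listed genes reached. The receptor gene Nr3c1 (Entrez gene 14815, on chromosome 18) stood at 178.79, 188.18 and 186.57 TPM in replicates 1, 2 and 3. The highest of these is 1.05 times the lowest, and they place the gene at percentile 95.1 of all listed genes, at rank 792. Its mean was 185 ± 5.02 TPM, from 11039 to 11512 expected counts per library. Its paralogue Nr3c2, the mineralocorticoid receptor gene that also binds glucocorticoids, was at 0.32, 0.43 and 0.6 TPM, from 17 to 30.42 counts. The difference between Nr3c1 and Nr3c2 was 7.003 ± 0.115 on the log2(TPM + 1) scale, where 1 is added to every value so that ratios of low genes are understated. Nr3c1 was higher in 3 of 3 libraries, with p = 0.25 by the exact permutation test (two-sided sign flips), the smallest that 3 libraries allow. The 3 genes nearest to Nr3c1 in level over the 3 libraries were Sept11, Chchd3 and LOC115488503, with root mean square differences of 0.00561, 0.0097 and 0.0166 in log2(TPM + 1). Sept11, for example, stood at 178.98, 186.97 and 186.24 TPM.

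Genes that make, activate or remove the ligand were mostly low. Of 9 listed genes of corticosteroid receptors and ligand handling 7 were detected, with a median of 2.89 TPM against 11.2 TPM over all listed genes. Hsd11b1, the enzyme that regenerates active glucocorticoid inside cells, was at 3.83, 2.62 and 3.07 TPM. H6pd, which supplies that enzyme with reduced cofactor in the endoplasmic reticulum, averaged 37.0 ± 1.56 TPM. Hsd11b2, which inactivates the hormone, was below 1 TPM in every library at 0.177 ± 0.115. Cyp11a1, the side-chain cleavage enzyme that starts steroid synthesis from cholesterol, was at 10.69, 11.93 and 9.95 TPM, and the cholesterol carrier gene Star at 2.89 ± 0.332 TPM. Cyp11b1, Cyp21a1, Hsd3b1 and Serpina6 were not listed, and no level is given for them.

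Both co-chaperone genes were high and close to each other. Fkbp5 (Entrez gene 14229, chromosome 17, 28398753 to 28486149 in GRCm38.p6) encodes FKBP51, which lowers the receptor's affinity for hormone and is itself a glucocorticoid target. It stood at 134.11, 141.8 and 141.53 TPM in replicates 1, 2 and 3, a mean of 139 ± 4.36. Fkbp4 (Entrez gene 14228, chromosome 6, 128430103 to 128438656) encodes FKBP52, which couples the receptor to dynein for transport to the nucleus. It was at 134.46, 121.75 and 126.35 TPM, a mean of 128 ± 6.44. The ranges of the pair overlap narrowly, since the highest Fkbp4 value, 134.46 TPM, exceeded the lowest Fkbp5 value, 134.11 TPM. Both are from replicate 1. Fkbp5 exceeded Fkbp4 by 0.13 ± 0.115 in log2(TPM + 1), in 2 of 3 libraries, with p = 0.5 by the exact permutation test. The difference was about as large as its SD between libraries. Fkbp5 lay 0.40 ± 0.00806 below Nr3c1 on the same scale, with nearly the same difference in each library.

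RNA of the chaperone genes examined around the receptor was detected throughout. All 17 genes of the HSP90 chaperone cycle were detected and 13 averaged 100 TPM or more, with a median of 133 TPM. Among all listed genes 67.3% were detected and 10.3% averaged 100 TPM or more. Protein was not measured. Hspa8, the constitutive HSP70 that loads the receptor, averaged 2678 ± 73.8 TPM. The HSP90 genes Hsp90ab1 and Hsp90aa1 averaged 1371 ± 32.5 and 212 ± 8.35 TPM. Cdc37, an HSP90 co-chaperone best known for kinases, was at 357 ± 21.99 TPM, and Bag1, a nucleotide exchange factor of HSP70, at 211 ± 2.86 TPM. The means of Fkbp5 and Fkbp4 lay on either side of that median.

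Of the 14 listed genes of the FKBP family 11 were detected. Fkbp8, which anchors at mitochondria, was the highest at 350 ± 12.3 TPM. Fkbp3 at 142 ± 4.09 and Fkbp1a at 137 ± 5.003 TPM were level with Fkbp5, Fkbp1a being FKBP12, the binder of tacrolimus and rapamycin. Fkbp2 and Fkbp15 were at 68.1 ± 7.73 and 46.0 ± 2.42 TPM. Fkbp9, Fkbp1b, Fkbpl and Fkbp7 lay between 4.67 ± 0.274 and 2.47 ± 0.429 TPM. Fkbp10, Fkbp11 and Fkbp14 had no more than 6 counts in any library, and each was listed at 0 in 1 library. Fkbp6 was not listed.

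**Figure D2:**
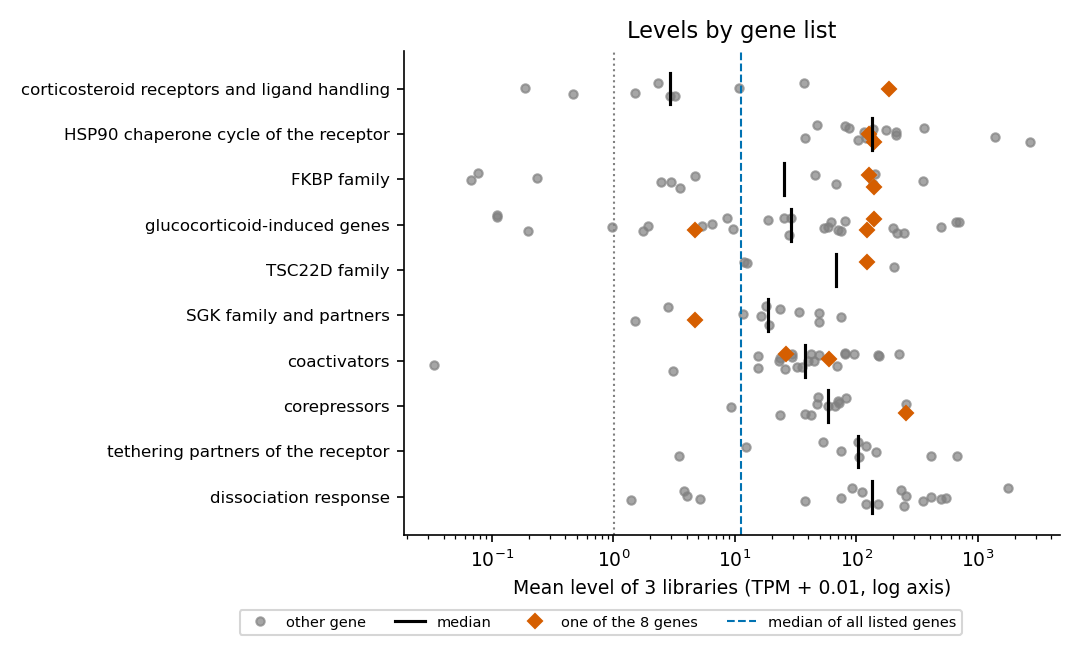
Mean level over 3 libraries (TPM + 0.01, log axis) of every listed gene in the 10 gene lists. Diamonds are the 8 genes, grey points the other genes, black bars the median of each list, the dashed line the median of all listed genes (11.2 TPM) and the dotted line 1 TPM. The chaperone list has a median of 133 TPM. The list of corticosteroid receptors and ligand handling, which includes Nr3c1, has a median of 2.89 TPM.

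The target genes differed widely in level. Tsc22d3 (Entrez gene 14605, chromosome X, 140539528 to 140600522) encodes GILZ, a leucine zipper protein that binds NF-kB and AP-1 and carries part of the anti-inflammatory action of glucocorticoids. It stood at 122.6, 121.36 and 121.92 TPM in replicates 1, 2 and 3, and these values overlap with those of Fkbp4. Sgk1 (Entrez gene 20393, chromosome 10, 21882184 to 21999903) encodes a serum- and glucocorticoid-inducible kinase that acts downstream of mTORC2. It was at 4.74, 4.63 and 4.55 TPM, from 103.57 to 109.37 counts per library, at percentile 41.0 of all listed genes. Both lay below the receptor in every library. The difference from Nr3c1 in log2(TPM + 1) was -0.59 ± 0.0463 for Tsc22d3 and -5.04 ± 0.0611 for Sgk1, with p = 0.25 for each by the exact permutation test.

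The promoters of the 8 genes were searched for the palindromic element through which the receptor is known to activate genes. The motif was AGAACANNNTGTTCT, and its half-sites were AGAACA and, on the other strand, TGTTCT. Windows ran from 250 bases before to 50 bases after each RefSeq start in GRCm38.p6. Only exact matches inside these windows were searched. Variant elements and elements farther away were not, so a window without a match does not show that its gene lacks an element. Windows were held for 6 of the 8 genes, 14 in all, and Nr3c1 and Ncoa2 had none. The full palindrome occurred in 3 of 32851 windows, or 0.00913% of them. One of these 3 belonged to Sgk1, in 1 of its 6 windows, at bases 21993701 to 21993715 of chromosome 10 and 189 bases before the start. Capitals mark the half-sites and the palindrome in the windows shown, each 5′ to 3′ on the strand of its gene. Sgk1 is shown for its palindrome, Tsc22d3 for the 1 of its 3 windows with a half-site, and Fkbp5 as a target whose window has neither.
Sgk1, chr10:21993640-21993939, plus strand: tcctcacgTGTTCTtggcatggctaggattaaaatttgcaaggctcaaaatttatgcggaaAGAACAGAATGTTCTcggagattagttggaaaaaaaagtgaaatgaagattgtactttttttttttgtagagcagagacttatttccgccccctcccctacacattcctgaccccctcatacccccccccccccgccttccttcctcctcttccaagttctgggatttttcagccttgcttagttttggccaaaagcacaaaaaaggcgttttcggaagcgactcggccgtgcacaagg
Tsc22d3, chrX:140600473-140600772, minus strand: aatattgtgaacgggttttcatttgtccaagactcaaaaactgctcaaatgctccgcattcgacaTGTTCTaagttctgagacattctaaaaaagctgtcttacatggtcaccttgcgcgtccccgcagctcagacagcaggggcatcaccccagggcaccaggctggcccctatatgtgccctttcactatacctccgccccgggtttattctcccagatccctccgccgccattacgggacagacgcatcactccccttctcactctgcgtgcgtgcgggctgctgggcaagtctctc
Fkbp5, chr17:28486100-28486399, minus strand: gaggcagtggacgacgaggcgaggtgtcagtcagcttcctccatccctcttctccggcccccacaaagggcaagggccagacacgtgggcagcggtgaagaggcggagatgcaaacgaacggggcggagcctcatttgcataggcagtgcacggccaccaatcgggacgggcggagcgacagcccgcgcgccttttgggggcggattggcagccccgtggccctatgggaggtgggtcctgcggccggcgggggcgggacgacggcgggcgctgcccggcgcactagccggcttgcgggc

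Half-sites are short and common. They were found in 6 of the 14 windows of the 8 genes, which came from Sgk1 (3 windows), Tsc22d3, Ncoa1 and Ncor1 (1 window each), and in 19.0% of all windows. Among windows of listed genes the share was 13.6%. Of the windows of the glucocorticoid-induced genes 6 of 39 (15.4%) held one, and these include the windows of Sgk1 and Tsc22d3 just counted. Each half-site of the palindrome is counted among these, and a window counts once. The Sgk1 window that holds the palindrome is at 1 of several start sites of that gene. The table gives no level per start site, so no level can be set beside a single window.

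Other genes known to be induced by glucocorticoids were spread over the same range. Of 29 listed, including Tsc22d3, Fkbp5 and Sgk1, 25 were detected and 8 averaged 100 TPM or more, with a median of 28.8 TPM. The other 26 had a median of 28.2 TPM. Rgs2, a regulator of G protein signalling, averaged 699 ± 17.5 TPM, and the IL-7 receptor gene Il7r 659 ± 19.7 TPM. Nfkbia, the NF-kB inhibitor, was at 498 ± 26.5 TPM, the MAP kinase phosphatase gene Dusp1 at 244 ± 12.1 TPM and the chemokine receptor gene Cxcr4 at 215 ± 6.66 TPM. Several of these genes also answer to other signals: Dusp1 and Nfkbia are in the list of genes that tissue dissociation induces. The macrophage receptor gene Cd163 and Zbtb16, which encodes PLZF, were below 1 TPM in every library, at 0.1 ± 0.052 and 0.187 ± 0.0757 TPM. Pdk4 was not listed.

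Within their families the 2 targets held different positions. Tsc22d3 was second of 4 TSC22D genes, after Tsc22d4 at 203 ± 4.05 TPM and before Tsc22d2 at 12.6 ± 0.231 and Tsc22d1 at 11.8 ± 1.09 TPM. Its difference from Tsc22d4 was -0.73 ± 0.0235 in log2(TPM + 1), of 1 direction in 3 of 3 libraries. Sgk1 exceeded Sgk3, its paralogue on endosomes, by 1.18 ± 0.199, with Sgk3 at 1.19, 1.83 and 1.47 TPM. Sgk2 was not listed. All 12 listed genes of the SGK family and its partners were detected, with a median of 18.7 TPM and none at 100 TPM. The ubiquitin ligase gene Nedd4 at 74.8 ± 1.15, Pdpk1, the kinase that activates SGK1, at 48.9 ± 0.422, and Mapkap1, an mTORC2 subunit, at 48.7 ± 1.40 TPM were all higher than Sgk1. Foxo3, a transcription factor that SGK1 phosphorylates, was at 33.8 ± 0.804 TPM, and Rictor, the defining subunit of mTORC2, at 23.6 ± 1.29 TPM.

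**Figure D3:**
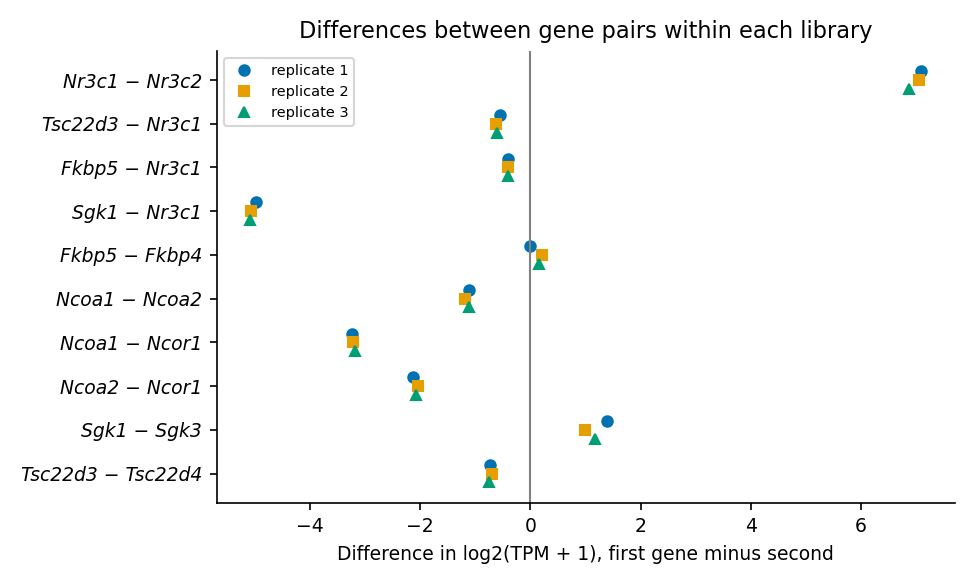
Differences in log2(TPM + 1) within each library for the 10 gene pairs, first gene minus second. Symbols are the 3 libraries and the vertical line is no difference. For 9 pairs all points fall on the same side of the line, and those of Fkbp5 and Fkbp4 fall on both, with a mean of 0.13.

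Of the 3 coregulators among the 8 genes the corepressor was the highest. The coactivator gene Ncoa1 (SRC-1, Entrez gene 17977, chromosome 12, 4247362 to 4477206) stood at 25.13, 27.07 and 27.15 TPM in replicates 1, 2 and 3, a mean of 26.5 ± 1.14. Ncoa2 (GRIP1, Entrez gene 17978, chromosome 1, 13139105 to 13374227), which the receptor uses both for activation and for repression of inflammatory genes, was at 55.65, 62.85 and 60.14 TPM. Its mean was 59.5 ± 3.64 TPM. Ncoa1 lay 1.14 ± 0.0393 below Ncoa2 in log2(TPM + 1) in 3 of 3 libraries, and the ranges of the pair did not overlap. The remaining p160 gene, Ncoa3, named here after its value was seen, was at 68.6 ± 2.06 TPM.

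Ncor1 (Entrez gene 20185, chromosome 11, 62315663 to 62457414), the scaffold that carries HDAC3 to silent sites, was the highest of the 8 genes. It stood at 245.36, 260.13 and 254.95 TPM in replicates 1, 2 and 3, a mean of 253 ± 7.49 and percentile 96.7 of all listed genes. The coactivators lay below it, Ncoa1 by a difference of -3.21 ± 0.0265 in log2(TPM + 1) and Ncoa2 by -2.07 ± 0.0447. Both differences kept their direction in every library and exceeded their SD many times. In all, 10 pairs were compared, and p was 0.25 by the exact permutation test for every pair other than Fkbp5 and Fkbp4. Benjamini-Hochberg adjustment cannot bring any of them lower.

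The wider coregulator lists were detected almost in full. Of 24 coactivator genes 23 were detected, with a median of 37.7 TPM, so that Ncoa2 lay above and Ncoa1 below their middle. The highest were Cbx3, a heterochromatin protein gene, at 225 ± 6.89, the histone methyltransferase gene Ehmt2 (G9a) at 154 ± 4.12, the arginine methyltransferase gene Prmt1 at 149 ± 8.29, Ncoa4 at 95.7 ± 2.51 and the SWI/SNF subunit gene Arid1a at 80.5 ± 1.60 TPM. Ppargc1a, the coactivator of mitochondrial genes, was at 0, 0.02 and 0.05 TPM. All 13 corepressor genes were detected, with a median of 58.6 TPM. The deacetylase gene Hdac1 was level with Ncor1 at 254 ± 3.51 TPM, and Hdac2 was at 81.6 ± 3.27 TPM. Cops2 at 71.2 ± 4.09 and Gps2, a subunit of the NCoR complex, at 70.7 ± 3.51 TPM followed.

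RNA of the transcription factors to which the receptor attaches was detected too. All 10 genes of this list were detected, beside 67.3% of all listed genes, with a median of 104 TPM. The NF-kB subunit genes Nfkb1 and Rela averaged 677 ± 17.6 and 105 ± 4.31 TPM. The AP-1 genes Fos and Jun averaged 410.4 ± 4.19 and 120 ± 16.1 TPM, and Stat3 145 ± 2.91 TPM. Fos and Jun belong also to the 18 genes of the dissociation response, all of which were detected. These had a median of 134 TPM and were led by Junb at 1770.5 ± 80.0 and Nr4a1 at 542 ± 22.8 TPM, followed by Nfkbia, Fos and Jund, the last at 352 ± 5.89 TPM. Their summed level was 4731, 4896 and 5078 TPM in replicates 1, 2 and 3. The part of dissociation in the levels of Dusp1 and Nfkbia was not tested.

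By mean level the order was Ncor1, Nr3c1, Fkbp5, Fkbp4, Tsc22d3, Ncoa2, Ncoa1 and Sgk1. Of the 7 neighbouring pairs in this order, 5 had ranges that did not overlap. The 2 that overlapped were Fkbp5 with Fkbp4 and Fkbp4 with Tsc22d3, while the ranges of Fkbp5 and Tsc22d3 did not. Fkbp4 was above Tsc22d3 in 3 of 3 libraries. The largest step was from Ncoa1 to Sgk1, where the means differed 5.70-fold.

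Levels differed little between libraries. The 5 genes with the longer transcripts (Nr3c1, Fkbp5, Ncoa1, Ncoa2 and Ncor1) were lowest in replicate 1, and the 3 with the shorter ones were highest there. How many of all genes were lowest or highest in replicate 1 was not counted here. For Tsc22d3 and Sgk1 the spread lay below counting error, so their order between libraries carries little weight. The highest library exceeded the lowest by a factor of 1.13 for Ncoa2, 1.10 for Fkbp4 and 1.010 for Tsc22d3. A chi-square test of rounded expected counts over the 3 libraries, with Benjamini-Hochberg adjustment over 11675 genes of at least 10 counts in each, called 4 of the 8 genes. It compares these libraries, not a condition, and it called 11.4% of all genes tested and 23.1% of those with at least 1000 counts in each library. Ncoa2 (adjusted p = 0.000133), Ncor1 (adjusted p = 0.000164) and Nr3c1 (adjusted p = 0.0326) were called with replicate 1 lowest, and Fkbp4 (adjusted p = 0.0035) with replicate 1 highest. Fkbp5, Ncoa1, Tsc22d3 and Sgk1 were not called, with adjusted p from 0.222 to 0.973. Nr3c1 was not called with library sizes from edgeR (adjusted p = 0.0646) or DESeq2 (adjusted p = 0.0721). Without replicate 1 the chi-square test called 0 of the 8 genes, with 2 at an unadjusted p below 0.05, beside 4.05% of all genes tested. Without replicate 2 it called 1, Ncoa2, beside 7.05% of all genes tested. The 4 calls were again made without replicate 3, beside 7.69% of all genes tested.

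**Figure D4:**
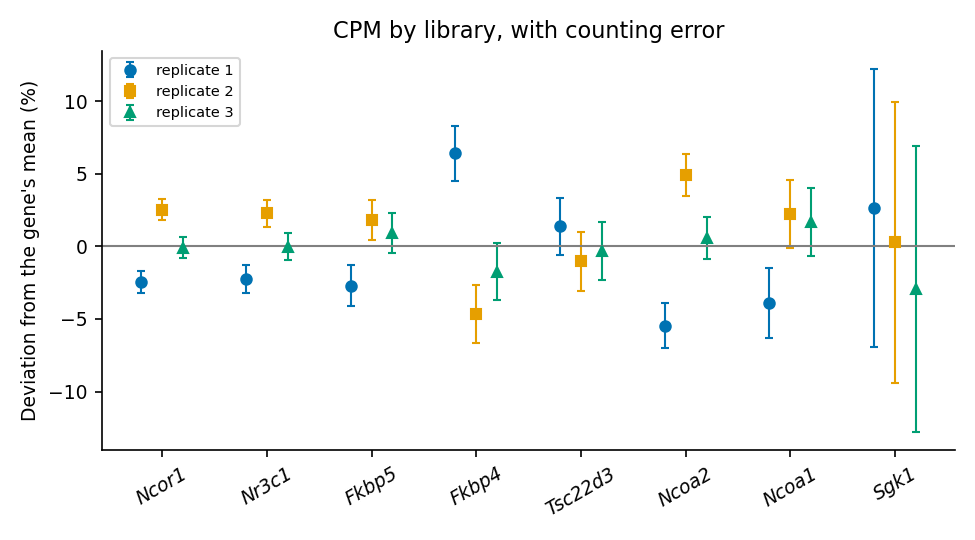
Deviation of each library's CPM from the gene's mean, in percent, for the 8 genes ordered by level. Symbols are the 3 libraries and whiskers the counting error (1 SD) of each. Replicate 1 is lowest for Ncor1, Nr3c1, Fkbp5, Ncoa2 and Ncoa1 and highest for Fkbp4, and the whiskers of Sgk1, with about 106 counts, are the widest.

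The spread of 4 of the 8 genes was near that of genes of like level, and it was wider for Ncoa2 and Fkbp4 and narrower for Tsc22d3 and Sgk1. The coefficient of variation of TPM was 2.72% for Nr3c1, beside a median of 3.06% for the genes within 2-fold of its level. It was 6.11% for Ncoa2 and 5.05% for Fkbp4, above 85.2% and 80.3% of genes of like level, 0.509% for Tsc22d3, above 1.70% of them, and 2.06% for Sgk1, above 5.12%. In counts scaled to library size the coefficient was 1.24% for Tsc22d3 and 2.80% for Sgk1. Counting alone gives 2.00% for Tsc22d3 and 9.69% for Sgk1, which both exceed what was seen in those counts. The common biological coefficient of variation over 11675 genes was 3.44% by edgeR.

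Transcript length moved with these differences. The log2 ratio of replicate 1 to the mean of replicates 2 and 3, in CPM (counts scaled to library size but not to length), had a median of 0.043 over genes shorter than 1000 bases and -0.065 over genes of 8000 bases or more. Nr3c1, with an implied length of 6406 bases, had a ratio of -0.049 and its length class a median of -0.049. Ncor1, with 8032 bases, had -0.053 where its class had -0.065. Ncoa2 had -0.12 with 8060 bases in the same class. Fkbp4, with 2147 bases, had 0.14, where the median of its class was 0.0088. With library sizes taken within 10 classes of implied length, an alternative chosen after seeing the data, Fkbp4 was the 1 gene of the 8 still called, beside 8.21% of all genes tested, and adjusted p was 0.91 for Nr3c1, 0.222 for Ncoa2 and 0.958 for Ncor1.

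**Figure D5:**
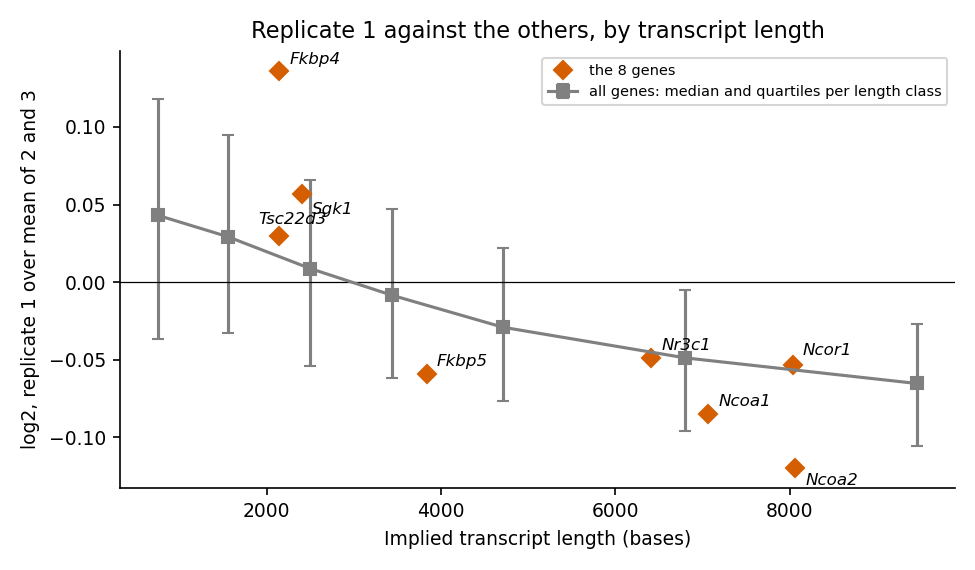
Log2 ratio of replicate 1 to the mean of replicates 2 and 3 (CPM) against implied transcript length in bases. Grey squares and whiskers are the median and quartiles of all genes with at least 100 counts in each library, by length class, and diamonds are the 8 genes. The medians fall with length and Fkbp4 lies above the quartiles of its class and Ncoa2 below those of its own.

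The implied length is the effective length by which the authors' values were scaled, obtained from the deposited expected counts and FPKM. In RSEM a gene's effective length is an average over its isoforms weighted by their abundance. An effective length is shorter than the transcript itself, so it is not the same measure as the annotated lengths given below. The implied length was the same in the 3 libraries within rounding for Fkbp5 at 3835 bases and Fkbp4 at 2147 bases. For the other 6 genes it differed beyond rounding, as it did for 66.9% of genes with at least 1 FPKM in each library. The differences were small, from 0.301% for Ncor1 to 0.961% for Tsc22d3, whose implied lengths were 2136, 2129 and 2149 bases in replicates 1, 2 and 3. For Nr3c1 they were 6402, 6430 and 6385 bases, where the longest protein-coding transcript in GENCODE M21 has a full length of 6436 bases. The implied lengths of Tsc22d3 exceeded its longest protein-coding transcript there, of 1974 bases, in every library. Those of each remaining gene lay below the longest protein-coding transcript of that gene. In GENCODE M21 these genes share little transcript sequence with others, searched on the transcribed strand only. How reads were shared in the authors' reference, whose annotation is not named, was not measured. Of the 50-base words in their GENCODE transcripts, no more than 1.43% (Fkbp4) occur in a transcript of another gene, and 0% for Ncoa1.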

How the data were processed

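Lung ILC2s from 3 libraries of 1 group were analysed. Bowtie2, RSEM 1.3.1 and the build GRCm38.p6 are named, without settings, per the submitters' processing notes, and no source used here names the annotation. Per the file headers, the authors deposited TPM, FPKM, expected counts (estimated, not all whole) and a depth-scaled signal (normalised read count). The last equals the rounded-up count times 1.00144, 1 and 0.997 in replicates 1 to 3 and was not used further. Levels are TPM, and pairs were compared as log2(TPM + 1). Expected counts were rounded for the chi-square tests and for edgeR 4.0.16 (intercept only). DESeq2 1.42.0 gave alternative size factors. The chi-square code was tested on simulated data. Counting errors take no account of duplicate reads. Coordinates and promoters are from RefSeq (GRCm38.p6), where 16081 of 16129 gene IDs matched, and transcript lengths from GENCODE M21 on the same assembly. Members and lists were chosen with earlier results of these data known. Named genes are the 8, their families and paired genes, the 5 highest of each other list and up to 4 below 1 TPM. Names outside this rule are Ncoa3 and genes given as not listed. Protein sequences were not analysed here. 1 planned pair was left out, and values of some list genes are not reported here.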

Additional observations from a re-analysis of the deposited data

How the results depend on the processing

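The direction of all 10 pair differences was the same with FPKM, with CPM, without ribosomal protein genes, with a pseudocount of 0.1 and without each library. Without length scaling (CPM) 4 moved by over 1.5 times, to -2.17 for Tsc22d3 against Nr3c1, -1.14 for Fkbp5 against Nr3c1, 0.96 for Fkbp5 against Fkbp4 (p = 0.25, exact permutation test) and 0.39 for Sgk1 against Sgk3. Fkbp5 against Fkbp4 ranged from 0.079 (without replicate 2) to 0.19 (without replicate 1). Percentiles moved by more than their spread with CPM, which are not scaled for length, to 98.6 for Nr3c1, 95.4 for Fkbp5, 89.3 for Fkbp4, 88.6 for Tsc22d3, 40.1 for Sgk1, 83.6 for Ncoa1, 94.7 for Ncoa2 and 99.4 for Ncor1. Without ribosomal protein genes, which removes genes from the ranking, they were 95.6 for Nr3c1, 93.6 for Fkbp5, 92.4 for Tsc22d3 and 97.2 for Ncor1. Detection at 5 TPM left 3 genes of corticosteroid receptors and ligand handling, among them Nr3c1 itself, and 7 of the FKBP family. The other 8 lists and the 8 genes stayed within 1.5 times of their counts. The chi-square calls rest on few libraries. Without 1 library they ranged from 0 (without replicate 1) to 4 (without replicate 3) of the 8 genes, with 1 called without replicate 2, with 4.05% to 7.69% of all genes called, 7.05% of them without replicate 2. With library sizes within length classes 1 of the 8 genes was called, beside 8.21% of all genes tested. It was 3 with edgeR factors (11.2% of all genes) and 3 with DESeq2 factors (11.3%), where Nr3c1 had adjusted p = 0.0646 and 0.0721. No paired analysis was possible because there is 1 group. Counting error limits Sgk1, and Nr3c2, with at most 30.42 counts per library, most.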
